A study of Mus musculus with 9 samples.

Results

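The 38 genes described here encode the enzymes and regulators that bring pyruvate into the mitochondrion and convert it to acetyl-CoA, the enzymes of the tricarboxylic acid (TCA) cycle, and the enzymes that refill the cycle or draw carbon from it. They were chosen by gene symbol as a pathway list, and all 38 were found among the 26858 genes of the count table. RNA-seq was done on cells sorted by flow cytometry for the eGFP/Cre fusion protein from kidneys of mouse embryos at embryonic age E18.5, with 1 library per sample. The 4 control libraries (replicates 71, 72, 73 and 76) came from Six2-Qpc+/- embryos and the 5 mutant libraries (replicates 74, 75, 77, 78 and 79) from Six2-Qpc-/- embryos. The comparison asks how gene expression in SIX2 progenitors, the cells from which nephrons arise, differs when the complex III subunit QPC (gene *Uqcrq*) is lost from both alleles.

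Both groups carried the *Six2-eGFP/cre* transgene, in which the *Six2* promoter drives Cre and eGFP, so the control cells were heterozygous for the *Qpc* deletion and not wild type. Mutant cells were homozygous for the floxed *Qpc* allele. No library without Cre was analysed here, and the labels give no litter, batch or sex. They do not say whether each library came from a separate embryo, so the p-values measure the spread between these samples, which may be partly technical. In bulk RNA from sorted cells, fewer cells of a type and less RNA per cell cannot be told apart.

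The TCA cycle oxidises acetyl-CoA to carbon dioxide and passes the electrons to NADH and, at succinate dehydrogenase, to ubiquinone. Complex III takes electrons from ubiquinol, so it lies downstream of both routes. Entry of pyruvate is set by the pyruvate dehydrogenase complex, which pyruvate dehydrogenase kinases (PDKs) switch off by phosphorylation and pyruvate dehydrogenase phosphatases (PDPs) switch on. Anaplerosis refills the cycle, for example from pyruvate through pyruvate carboxylase or from glutamate, while cataplerosis draws citrate, malate or oxaloacetate out of it for synthesis.

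The libraries held 21040536 to 23986458 counts on genes, and 37 of the 38 genes had at least 100 counts in each library; the exception was *Me1*, with 77 to 272. *Uqcrq* (chromosome 11, 53427922 to 53430831, GRCm38), the targeted gene, had 107, 76.8, 91.1 and 101 CPM (counts scaled to a normalized library size of 1000000) in the control libraries and 16.5, 28.2, 22.6, 20.3 and 19.0 CPM in the mutant libraries, with no overlap. Its log2 fold change, mutant against control, was −2.14 (standard error (SE) 0.16, adjusted p = 2.09e-05, edgeR). Markers of nephron progenitors summed to 2055 to 2520 CPM in control and 2039 to 2488 CPM in mutant libraries, and 0 of 8 differed by edgeR at an adjusted p under 0.05, with *Six2* at 571 and 704 CPM. Markers of committed nephron cells summed to 327 to 650 CPM in control and 245 to 355 CPM in mutant libraries, with 3 of 6 lower. Stromal markers summed to 87.6 to 147 CPM in control and 207 to 594 CPM in mutant libraries, with 5 of 7 tested higher, and myeloid markers to 2.30 to 7.47 and 5.58 to 65.1 CPM, with 1 of 5 higher. Endothelial markers summed to 2.49 to 5.10 and 2.81 to 7.07 CPM, with 1 of 3 tested higher (*Pecam1*, 0.248 and 1.36 CPM). The part of these other cell types in the values below was not tested.

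Libraries of 1 genotype also differed among themselves in a way that followed gene length. When the 38 genes were split at their median length of 2701.5 bases, a split chosen after the data were seen, the 19 shorter genes lay below the mean of their own genotype in control replicate 72 (17 of 19), mutant replicate 74 (17 of 19) and mutant replicate 79 (18 of 19). Control replicate 73 was mixed, with 11 of 19 below, and the other 5 libraries had 2 to 7 of 19 below. The median deviation of the shorter genes was −0.20 on the log2 scale in control replicate 72, −0.21 in mutant replicate 74 and −0.19 in mutant replicate 79, against 0.14 in mutant replicates 75 and 77. Over all 14990 genes tested, split at the same length, the shorter genes deviated in the same direction as the 38 genes in each of the 9 libraries. Both genotypes hold libraries of either kind, and values for each library are therefore given below.

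**Figure D1:**
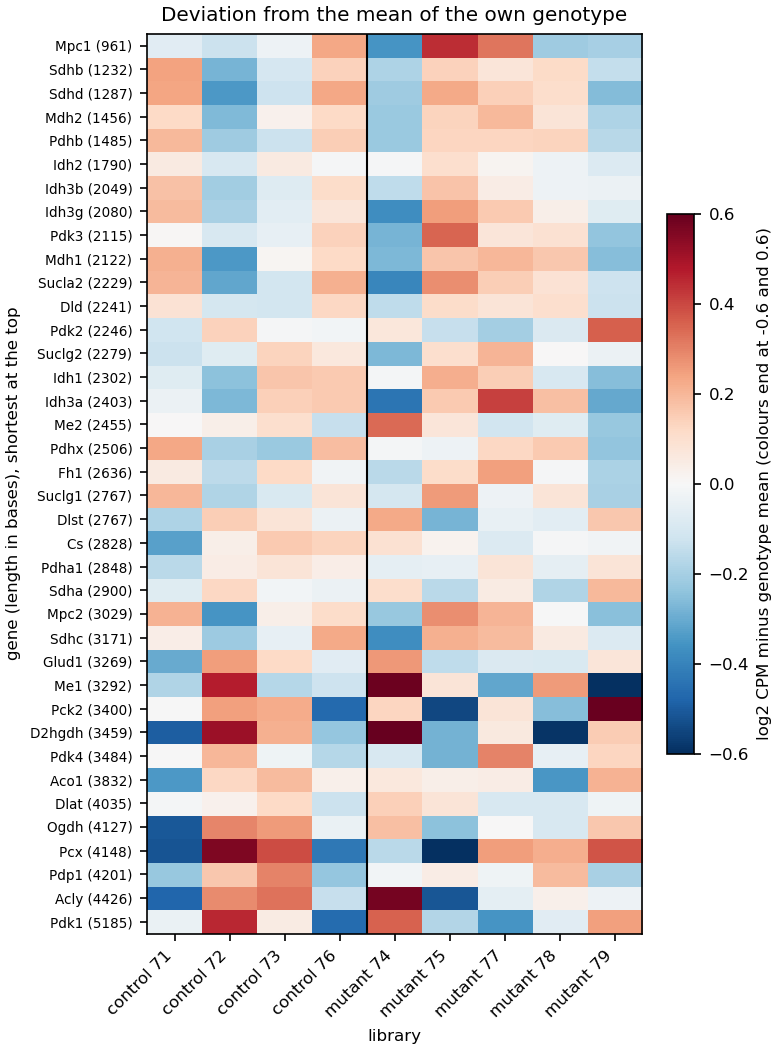
Deviation of each of the 38 genes (rows, ordered by the deposited gene length in bases, shortest at the top) from the mean of its own genotype in each library (columns), as log2 CPM, with red above and blue below the genotype mean. The upper rows are mostly blue in control 72, mutant 74 and mutant 79, and mostly red in mutant 75 and mutant 77.

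All 38 genes passed the filter on low counts, which left 14990 genes for the edgeR quasi-likelihood test. At an adjusted p under 0.05, 5 of the 38 differed (13.2%), against 14.8% of all genes tested. *Pdk4*, *Pdp1* and *Pdha1* rose (background 7.82% higher), and *Pdk2* and *Idh1* fell (background 7.02% lower). The libraries of the 2 genotypes did not overlap for 6 genes (15.8%), the 5 named and *Idh2*, against 15.2% of all genes tested. Both shares lie near the background. Leaving out 1 library gave between 2 genes (without mutant replicate 78) and 8 genes (without mutant replicate 74), with 3 without control replicate 73. In these 3 fits, 9%, 21.2% and 6.85% of all genes tested passed. With 1 surrogate variable 9 genes passed (14.5% of all genes tested), and with limma-voom with quality weights 13 (32.4%). The median log2 fold change was 0.03 over the 38 genes and −0.01 over all genes tested, and the median of its absolute value was 0.20 and 0.30. Among the 10082 genes tested whose mean CPM lay within the range of the 38, the median absolute log2 fold change was 0.24 and 16.5% differed.

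By step, 4 of the 12 genes of pyruvate entry (33.3%) and 1 of the 7 genes from citrate to 2-oxoglutarate (14.3%) passed the test. Of all genes tested, 14.8% passed, and whether the steps differ from that share was not tested. None of the 6 genes from 2-oxoglutarate to succinate, the 7 from succinate to oxaloacetate or the 6 of anaplerosis and exit passed in the edgeR fit. Of these, 2, 0 and 1 had an unadjusted p under 0.05, against 31.4% of all genes tested. The 33 genes that did not pass had log2 fold changes between −0.69 and 0.44. Together the 38 genes took 0.784 to 0.827% of all counts in control libraries and 0.746 to 0.789% in mutant libraries, ranges that overlap.

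**Figure D2:**
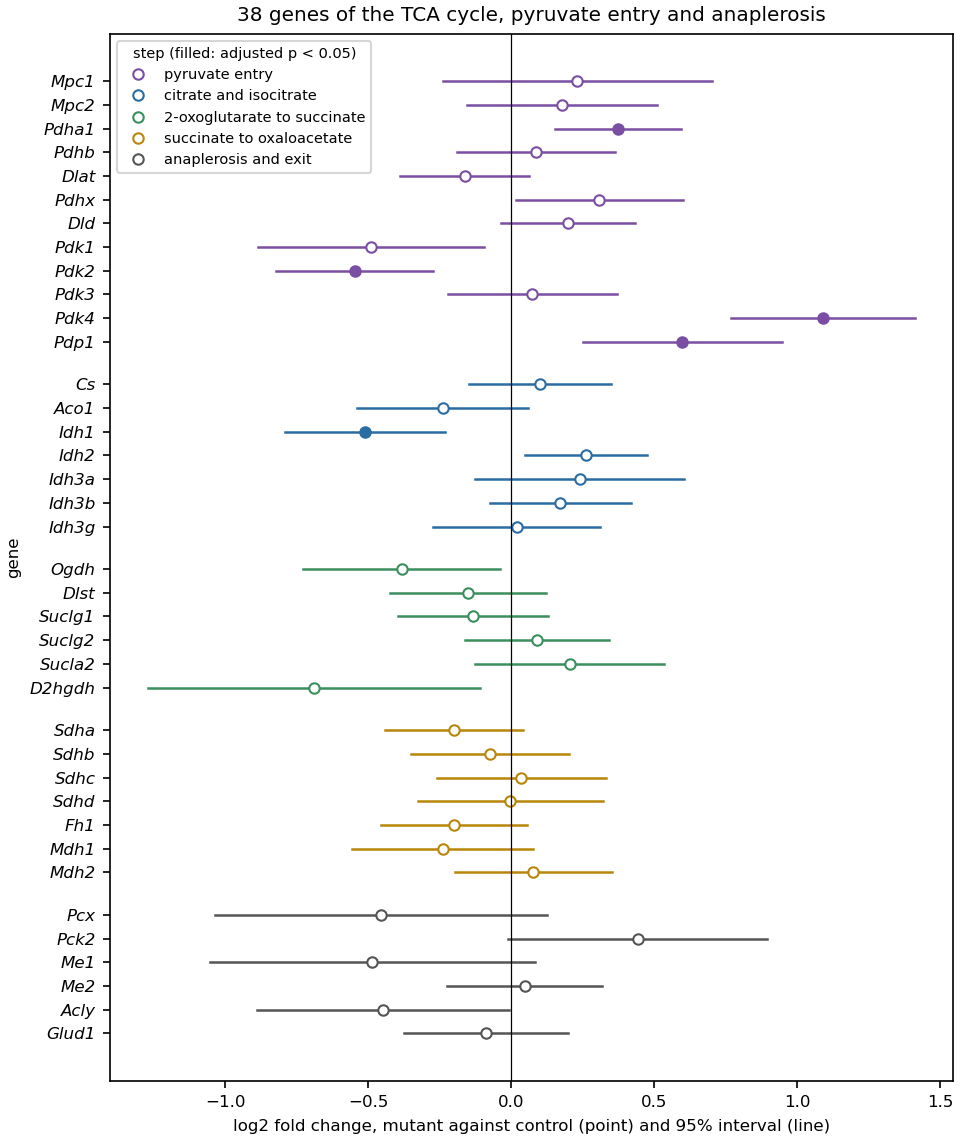
Log2 fold change, mutant against control (x axis), of the 38 genes grouped by step (y axis), with the 95% interval as a line. Filled points passed an adjusted p of 0.05: *Pdk4* at 1.09, *Pdp1* at 0.60, *Pdha1* at 0.37, *Idh1* at −0.51 and *Pdk2* at −0.55. Of these 5, 4 belong to pyruvate entry, which holds 12 of the 38 genes. That is 33.3% of the step, against 14.8% of all genes tested, and the difference between these shares was not tested.

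Of the 4 PDK genes, *Pdk4* rose and *Pdk2* fell. Their promoters are shown because the 2 genes code for the same kind of enzyme and moved in opposite directions, beside that of *Pdha1*, which codes for the subunit they phosphorylate. The sequences are from RefSeq (GRCm38.p6), 5′ to 3′ on the strand of the gene, and run from 250 bases before to 50 bases after the start site: *Pdk4* chr6:5496229-5496528, *Pdk2* chr11:95041322-95041621 and *Pdha1* chrX:160138381-160138680, all on the minus strand. Capitals mark matches to ACGTG, the core letters bound by hypoxia-inducible factors.
Pdk4: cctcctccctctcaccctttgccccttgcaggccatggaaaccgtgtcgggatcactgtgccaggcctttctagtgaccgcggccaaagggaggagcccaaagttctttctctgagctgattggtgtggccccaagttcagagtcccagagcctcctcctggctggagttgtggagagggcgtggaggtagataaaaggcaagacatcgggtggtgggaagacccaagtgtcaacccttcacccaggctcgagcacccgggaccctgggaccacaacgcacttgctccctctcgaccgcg
Pdk2: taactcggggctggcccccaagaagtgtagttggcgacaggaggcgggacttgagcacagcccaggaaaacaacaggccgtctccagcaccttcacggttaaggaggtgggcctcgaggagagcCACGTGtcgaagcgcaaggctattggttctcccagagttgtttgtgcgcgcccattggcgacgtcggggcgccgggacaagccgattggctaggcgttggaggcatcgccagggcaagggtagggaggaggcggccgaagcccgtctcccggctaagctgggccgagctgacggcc
Pdha1: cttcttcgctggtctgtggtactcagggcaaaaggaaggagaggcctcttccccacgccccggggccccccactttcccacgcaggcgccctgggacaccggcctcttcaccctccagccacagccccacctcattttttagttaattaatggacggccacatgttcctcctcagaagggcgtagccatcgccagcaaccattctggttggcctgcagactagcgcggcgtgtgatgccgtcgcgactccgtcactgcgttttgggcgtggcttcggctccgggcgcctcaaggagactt

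In the *Pdk2* window, ACGTG on the gene's strand (position −125 from the start site) and its reverse complement CACGT (position −126) overlap as CACGTG. Neither the *Pdk4* nor the *Pdha1* window holds ACGTG or CACGT, but both hold the form GCGTG. The windows are therefore not told apart by the core letters as a whole. A promoter window was matched for 34 of the 38 genes, not for *Pdp1*, *Me2*, *Idh3a* and *Sdhc*. ACGTG on either strand occurred in 9 of the 34 (26.5%), namely *Acly*, *Idh3g*, *Mdh1*, *Ogdh*, *Pcx*, *Pdhb*, *Pdk2*, *Pdk3* and *Sdha*, and in 19.6% of the 32851 promoter windows of the table. GCATGCGC, letters of the NRF1 core, occurred in 2 of 34 (5.88%), *Glud1* and *Sdhb*, and in 2.71% of all windows. *Pdk2* alone among the genes with a match to either motif passed the test of expression, which 14.8% of all genes tested passed. *Pdp1*, which also passed, had no window, and a link between motif and expression was not tested.

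*Pdk4* (chromosome 6, 5483351 to 5496309), the PDK induced by fasting in many tissues, had 19.4, 22.4, 19.1 and 17.3 CPM in control libraries and 38.6, 33.9, 50.6, 39.9 and 45.1 CPM in mutant libraries. All 5 mutant libraries lay above all 4 control libraries. The means were 19.6 ± 2.11 (SD, n = 4) and 41.6 ± 6.43 CPM (SD, n = 5), a 2.13-fold rise (log2 fold change 1.09, SE 0.15, adjusted p = 0.000993). *Pdk4* passed the test in 17 of 17 settings, with log2 fold changes from 1.01 to 1.16.

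*Pdk2* (chromosome 11, 95026258 to 95041354), the most widely expressed of the kinases, had 115, 137, 124 and 124 CPM in control libraries and 88.9, 77.1, 73.7, 79.8 and 109 CPM in mutant libraries. The highest mutant library, replicate 79, stayed below the lowest control library, replicate 71. The means were 125 ± 9.19 (SD, n = 4) and 85.6 ± 14.1 CPM (SD, n = 5), and the log2 fold change was −0.55 (SE 0.13, adjusted p = 0.014). *Pdk2* also passed the test in 17 of 17 settings.

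*Pdk1*, a target of hypoxia-inducible factors, had 123, 173, 131 and 92.0 CPM in control libraries and 116, 80.6, 71.1, 86.9 and 108 CPM in mutant libraries. The groups overlapped through control replicate 76 and mutant replicates 74 and 79, and the log2 fold change of −0.49 did not pass the test (SE 0.18, adjusted p = 0.0852). It passed without mutant replicate 74 (−0.59, adjusted p = 0.0341) without control replicate 76 (−0.61, adjusted p = 0.0332) and with limma-voom (−0.59, adjusted p = 0.0112), and it was −0.32 (adjusted p = 0.271) without control replicate 72 and −0.18 (adjusted p = 0.275) with 1 surrogate variable. *Pdk3* had 81.6 ± 5.87 CPM in the 4 control libraries and 85.9 ± 15.6 CPM in the 5 mutant libraries (log2 fold change 0.07, 95% interval −0.22 to 0.37).

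Levels of the 4 kinases were compared per kilobase of gene length. *Pdk2* made up 44.6 ± 1.17% of their summed CPM per kilobase in control libraries and 35.0 ± 4.45% in mutant libraries, and *Pdk4* 4.49 ± 0.261% and 11 ± 1.92% (SD, n = 4 and 5). *Pdk1* went from 19.9% to 16.4% and *Pdk3* from 31.1% to 37.5% of the sum as means, with overlapping libraries. The sum itself was 125 ± 8.28 CPM per kilobase in control and 109 ± 5.03 in mutant libraries, and *Pdk4* had the lowest mean level of the 4 kinases in both genotypes.

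*Pdp1* (chromosome 4, 11958184 to 11966452) encodes the catalytic subunit of a phosphatase that opposes the kinases. It had 12.2, 15.9, 17.5 and 12.2 CPM in control libraries and 21.5, 22.5, 21.4, 24.8 and 19.0 CPM in mutant libraries, with no overlap between the groups. The means were 14.4 ± 2.70 (SD, n = 4) and 21.9 ± 2.10 CPM (SD, n = 5), a 1.51-fold rise (log2 fold change 0.60, SE 0.16, adjusted p = 0.0268). The call was lost without control replicate 71 (adjusted p = 0.0729), control replicate 76 (0.0536) or mutant replicate 78 (0.0693).

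*Pdha1* (chromosome X, 160122209 to 160138413), the E1 alpha subunit that carries the phosphorylation sites, had 73.7, 85.1, 86.9 and 84.8 CPM in control libraries and 103, 103, 113, 103 and 113 CPM in mutant libraries. The mutant values lay within a narrow range above all control values, and control replicate 71 was the lowest library. The means were 82.6 ± 6.05 (SD, n = 4) and 107 ± 5.41 CPM (SD, n = 5), a 1.30-fold rise (log2 fold change 0.37, SE 0.10, adjusted p = 0.0276). Its log2 fold change lay between 0.32 and 0.40 in 17 settings. The call was kept in 10 of them and lost without control replicates 71, 72 or 73, without mutant replicates 77, 78 or 79, and without the filter on low counts, with adjusted p-values of 0.0537 to 0.0739. *Pdha1* shares 603 bases of exons with *Map3k15* on the opposite strand, which was not among the genes tested, and reads carry no strand information.

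The other subunits of the complex did not pass the test. *Pdhb* (E1 beta) had 354 ± 49.1 CPM in control and 376 ± 45.4 CPM in mutant libraries (log2 fold change 0.09, adjusted p = 0.689). *Dlat* (E2) had 102 ± 7.19 and 90.8 ± 6.84 CPM (−0.16, adjusted p = 0.312). *Dld* (E3, shared with the 2-oxoglutarate dehydrogenase complex) had 183 ± 15.8 and 210.1 ± 18.6 CPM (0.20, adjusted p = 0.233). *Pdhx*, which binds E3 to the core, had 55.6 ± 9.26 and 68.8 ± 7.26 CPM (0.31, adjusted p = 0.14). The subunits that did not pass thus had log2 fold changes of either sign, from −0.16 to 0.31. The mitochondrial pyruvate carrier genes did not pass either: *Mpc1* had 7.23 ± 0.828 and 8.48 ± 2.16 CPM (0.23, adjusted p = 0.507) and *Mpc2* 43.9 ± 6.98 and 49.7 ± 8.28 CPM (0.18, adjusted p = 0.467). About 480 bases of *Mpc1* exons overlap a gene on the opposite strand, *4930506C21Rik*, which was not among the genes tested.

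**Figure D3:**
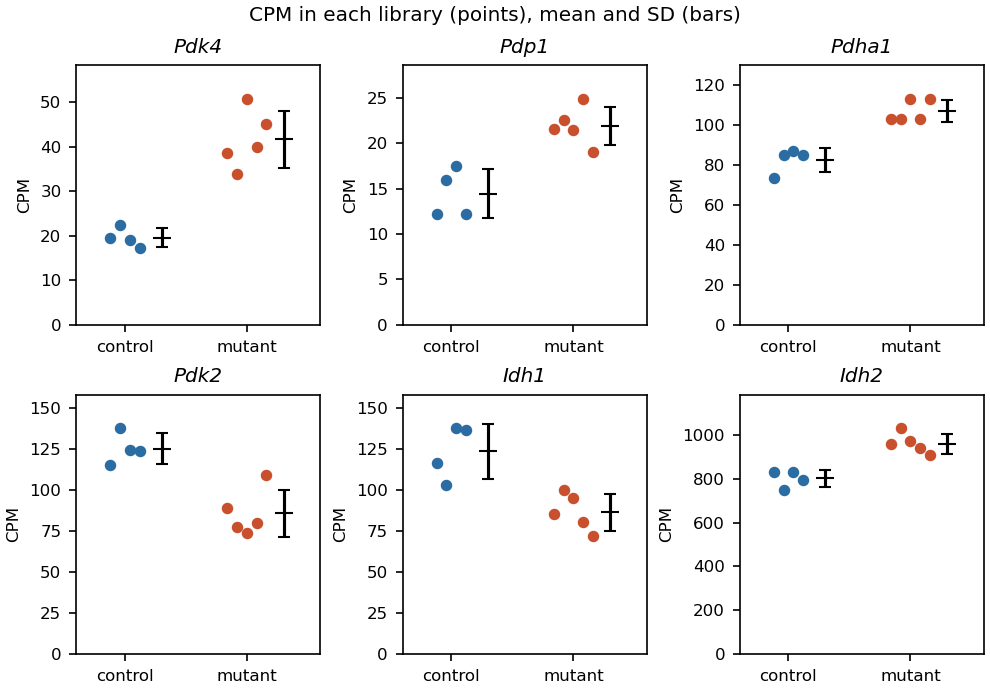
CPM (y axis, from 0) of *Pdk4*, *Pdp1*, *Pdha1*, *Pdk2*, *Idh1* and *Idh2* in the 4 control and 5 mutant libraries (points), with the mean and SD beside them (bars). The control and mutant points do not overlap in any of the 6 panels, and *Idh2*, with means of 801 and 959.9 CPM, is the only 1 of the 6 that did not pass the test.

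At the first step of the cycle, citrate synthase (*Cs*) had 178 ± 25.7 CPM in the 4 control libraries and 191 ± 8.53 CPM in the 5 mutant libraries (log2 fold change 0.10, 95% interval −0.15 to 0.35). *Aco1*, the cytosolic aconitase that also serves as an iron regulatory protein, had 100.4 ± 15.6 and 85.1 ± 11.5 CPM (−0.24, adjusted p = 0.259).

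The isocitrate dehydrogenases fall into NADP+-dependent enzymes, cytosolic IDH1 and mitochondrial IDH2, and the NAD+-dependent IDH3 of the cycle. *Idh1* (chromosome 1, 65158616 to 65186500) had 117, 104, 138 and 137 CPM in control libraries and 85.4, 100.2, 95.4, 80.6 and 72.1 CPM in mutant libraries. The groups did not overlap, although control replicate 72 and mutant replicate 75 lay close together. The means were 124 ± 16.6 (SD, n = 4) and 86.7 ± 11.3 CPM (SD, n = 5), and the log2 fold change was −0.51 (SE 0.13, adjusted p = 0.0204). The call was lost without control replicate 73 (adjusted p = 0.076), control replicate 76 (0.0518) or mutant replicate 78 (0.0537).

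*Idh2* had 831, 748, 829.8 and 796 CPM in control libraries and 956, 1029, 969, 939 and 906 CPM in mutant libraries. All mutant libraries were above all control libraries, yet the log2 fold change of 0.26 did not pass the test (SE 0.10, 95% interval 0.05 to 0.47, adjusted p = 0.0887). It passed in 3 of 17 settings, and the adjusted p ranged between 0.0229 and 0.236. The 3 subunits of IDH3 did not pass: *Idh3a* had 121 ± 16.2 and 143 ± 34.2 CPM (log2 fold change 0.24), *Idh3b* 351 ± 42.4 and 395 ± 32.9 CPM (0.17), and *Idh3g* 381 ± 43.7 and 386 ± 61.8 CPM (0.02). Their 95% intervals ran from −0.27 to 0.60.

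Within each library, the ratio of *Idh2* to *Idh1* per kilobase does not depend on the scaling between libraries. On the log2 scale it was 3.20, 3.22, 2.95 and 2.9 in control libraries and 3.85, 3.72, 3.71, 3.91 and 4.01 in mutant libraries, and the groups did not overlap. The means were 3.07 ± 0.16 (SD, n = 4) and 3.84 ± 0.13 (SD, n = 5), a difference of 0.77 that follows from the separate values of the 2 genes, neither of which overlapped. As geometric means, *Idh2* was 8.38 times as high as *Idh1* in control and 14.3 times as high in mutant libraries.

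From 2-oxoglutarate to succinate, no gene passed the edgeR test. *Ogdh*, the E1 subunit of the 2-oxoglutarate dehydrogenase complex, had 71.7, 125, 122 and 99.5 CPM in control libraries and 90.5, 67.2, 79.9, 74.6 and 89.1 CPM in mutant libraries (log2 fold change −0.38, SE 0.16, adjusted p = 0.121). Control replicate 71 lay among the mutant libraries, and without it *Ogdh* passed (−0.53, adjusted p = 0.033), as it did with limma-voom (−0.52, adjusted p = 0.0121). Without control replicate 72 the value was −0.29 (adjusted p = 0.307), and with 1 surrogate variable −0.22 (adjusted p = 0.346). *Dlst*, the E2 subunit, had 83.7 ± 8.24 and 75.4 ± 10.3 CPM (−0.15, adjusted p = 0.446).

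Succinyl-CoA ligase pairs the alpha subunit *Suclg1* with a GTP-specific (*Suclg2*) or an ATP-specific (*Sucla2*) beta subunit. *Suclg1* had 187 ± 22.1 and 170.5 ± 21.1 CPM (log2 fold change −0.13), *Suclg2* 190.4 ± 15.9 and 203 ± 24.4 CPM (0.09), and *Sucla2* 215 ± 37.1 and 248 ± 43.1 CPM (0.20), with 95% intervals that ran from −0.40 to 0.53 over the 3 genes. The log2 ratio of *Suclg2* to *Sucla2* was −0.19 ± 0.29 in control and −0.31 ± 0.13 in mutant libraries, a difference of −0.12 that was smaller than the spread between control libraries (2-sided exact permutation test, p = 0.452).

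*D2hgdh* converts D-2-hydroxyglutarate back to 2-oxoglutarate. It had 8.69, 17.4, 14.2 and 10.4 CPM in control libraries and 11.9, 6.20, 7.85, 5.02 and 8.39 CPM in mutant libraries, on 102 to 448 counts per library. Its log2 fold change of −0.69 was the lowest of the 38 genes but did not pass the test (SE 0.27, adjusted p = 0.0991), and mutant replicate 74 lay above control replicates 71 and 76. Without mutant replicate 74 the value was −0.89 (adjusted p = 0.026), with limma-voom −0.96 (adjusted p = 0.0081), without control replicate 72 −0.50 (adjusted p = 0.29) and with 1 surrogate variable −0.35 (adjusted p = 0.323). The deposited identifier of this row belongs to another gene; its symbol, start and end are those of *D2hgdh* in GENCODE M21, and whether its counts belong to that gene was not tested.

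From succinate to oxaloacetate, the 7 genes had log2 fold changes from −0.24 to 0.08, with 95% intervals between −0.55 and 0.35. Succinate dehydrogenase is also complex II of the respiratory chain and feeds ubiquinone, the pool that complex III oxidises. Its flavoprotein gene *Sdha* had 452, 519, 471 and 465 CPM in control libraries and 443, 368, 427, 364 and 472 CPM in mutant libraries, overlapping through mutant replicate 79 (log2 fold change −0.20, adjusted p = 0.243). The iron-sulphur subunit gene *Sdhb* had 424 ± 67.6 and 403 ± 41.6 CPM (−0.07, adjusted p = 0.734). The membrane anchor genes had 242 ± 31.2 and 248 ± 38.9 CPM (*Sdhc*) and 443 ± 85.0 and 442 ± 66.1 CPM (*Sdhd*, whose sign changed with RLE normalization). The intervals of the 4 subunits lay between −0.44 and 0.33, so a change of 1 on the log2 scale in either direction lies outside all of them.

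Fumarase (*Fh1*) had 138 ± 11.2 CPM in the 4 control libraries and 121 ± 15.6 CPM in the 5 mutant libraries (log2 fold change −0.20, adjusted p = 0.27). *Mdh1*, the cytosolic malate dehydrogenase of the malate-aspartate shuttle, had 650.4 ± 103 and 551 ± 88.9 CPM (−0.24, adjusted p = 0.286). *Mdh2*, the mitochondrial enzyme of the cycle, had 648 ± 77.1 and 684 ± 88.4 CPM (0.08, adjusted p = 0.719). The malate dehydrogenases each spread widely within a genotype: *Mdh1* ranged from 508 to 746 CPM among control libraries. With 1 surrogate variable in the fit, *Fh1* (−0.32, adjusted p = 0.0477) and *Mdh1* (−0.45, adjusted p = 0.00533) passed the test, and neither did so in any of the other 16 settings.

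Among the genes of anaplerosis and exit, *Pck2*, the mitochondrial phosphoenolpyruvate carboxykinase, which draws oxaloacetate towards glycolytic intermediates and serine, had the highest log2 fold change. It had 63.9, 76.2, 74.7 and 46.5 CPM in control libraries and 93.7, 58.6, 90.5, 71.8 and 129 CPM in mutant libraries. Mutant replicate 79 was far above the others, mutant replicates 75 and 78 lay among the control libraries, and the log2 fold change of 0.44 did not pass the test (SE 0.21, adjusted p = 0.169). With 1 surrogate variable it was 0.68 (adjusted p = 0.0441), and with a covariate for Y-linked expression 0.59 (adjusted p = 0.0344), while without mutant replicate 79 it was 0.27 (adjusted p = 0.364) and with limma-voom 0.26 (adjusted p = 0.28). The *Pck2* promoter is shown because it alone among the 34 windows held TGATGNAA, letters of the composite element of ATF4 and C/EBP factors. The match lies on the opposite strand, with its first base at position −103, and is written in capitals in the RefSeq sequence (GRCm38.p6, chr14:55540016-55540315, plus strand).
Pck2: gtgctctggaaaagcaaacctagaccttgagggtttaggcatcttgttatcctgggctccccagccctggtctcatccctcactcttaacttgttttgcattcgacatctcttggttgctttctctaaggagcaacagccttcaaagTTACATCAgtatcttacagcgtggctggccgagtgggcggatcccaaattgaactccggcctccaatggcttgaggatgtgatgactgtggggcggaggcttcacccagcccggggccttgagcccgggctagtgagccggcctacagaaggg

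TGATGNAA occurred on either strand in 3.97% of all 32851 windows and in 2.94% of the 34. The match is a description of letters in these 300 bases, and no binding was measured here.

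Pyruvate carboxylase (*Pcx*), which makes oxaloacetate from pyruvate, had 9.80, 20.7, 18.4 and 10.4 CPM in control libraries and 9.38, 6.51, 12.4, 12.2 and 13.6 CPM in mutant libraries. Control replicates 72 and 73 were above all other libraries, and control replicates 71 and 76 lay within the mutant range (log2 fold change −0.45, SE 0.27, adjusted p = 0.27). The log2 ratio of *Pcx* to *Pdha1* per kilobase sets pyruvate carboxylase against 1 subunit of the pyruvate dehydrogenase complex. *Pdha1* (log2 fold change 0.37) was the only subunit to pass the test, and the others had values from −0.16 to 0.31. Ratios of *Pcx* to those subunits were not tested. The ratio to *Pdha1* was −3.45, −2.58, −2.78 and −3.57 in control and −4.00, −4.53, −3.73, −3.62 and −3.60 in mutant libraries. The gap between the groups was narrow, between control replicate 76 and mutant replicate 79. The difference of −0.80 had an exact permutation p of 0.00794, the lowest possible with these group sizes (0.0132 adjusted over the 5 ratios). Without control replicate 72 the difference fell to −0.63 with an adjusted p of 0.0595. The difference follows from the separate values of *Pcx*, which overlapped and did not pass, and of *Pdha1*, which passed without overlap. It is therefore not a separate result about *Pcx*.

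The malic enzymes convert malate to pyruvate. *Me1*, the cytosolic NADP+-dependent enzyme, had 6.73, 10.6, 6.79 and 7.00 CPM in control libraries and 8.01, 5.62, 4.28, 6.35 and 3.49 CPM in mutant libraries (log2 fold change −0.49, SE 0.26, adjusted p = 0.228). *Me2*, the mitochondrial enzyme, had 396 ± 27.0 CPM in the 4 control libraries and 409 ± 65.0 CPM in the 5 mutant libraries (0.05, adjusted p = 0.835). The log2 ratio of *Me2* to *Me1* per kilobase was 6.12 ± 0.31 and 6.67 ± 0.30, and the groups overlapped. The difference of 0.55 had an exact permutation p of 0.0397 and 0.0496 adjusted over the 5 ratios, and it stayed under 0.05 in 2 of the 9 fits that left out 1 library.

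*Acly*, which splits exported citrate into cytosolic acetyl-CoA, had 106, 180.2, 185 and 135 CPM in control libraries and 161, 75.5, 103, 110.2 and 106 CPM in mutant libraries. Mutant replicate 74 lay within the control range and control replicate 71 within the mutant range, and the log2 fold change was −0.45 (SE 0.20, adjusted p = 0.153). Without mutant replicate 74 it was −0.62 (adjusted p = 0.0255) and with limma-voom −0.66 (adjusted p = 0.0093), while with 1 surrogate variable it was −0.21 (adjusted p = 0.484) and without mutant replicate 75 −0.34 (adjusted p = 0.277). *Glud1*, which turns glutamate into 2-oxoglutarate, had 131 ± 21.4 and 123 ± 15 CPM (−0.09, 95% interval −0.38 to 0.20).

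The fifth ratio set the summed kinases against the phosphatase gene *Pdp1* alone. The paralog *Pdp2* was not part of it, although its mean level was 2.37 CPM per kilobase in control and 2.96 in mutant libraries. A ratio to *Pdp1* and *Pdp2* together was not tested, so the values below hold for *Pdp1* only. On the log2 scale, summed *Pdk1* to *Pdk4* over *Pdp1* per kilobase was 5.36, 5.18, 4.89 and 5.38 in control libraries and 4.37, 4.37, 4.34, 4.17 and 4.68 in mutant libraries, with no overlap. The means were 5.2 ± 0.23 (SD, n = 4) and 4.39 ± 0.18 (SD, n = 5), a difference of −0.81 (exact permutation test, p = 0.00794, 0.0132 adjusted over the 5 ratios). This difference follows from the separate values given above. *Pdp1* had a log2 fold change of 0.60, and the kinase sum was 125 and 109 CPM per kilobase. As geometric means, the summed kinases were 36.8 times *Pdp1* in control and 20.9 times *Pdp1* in mutant libraries. These are transcript ratios, and phosphorylation of the complex was not measured in these libraries.

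**Figure D4:**
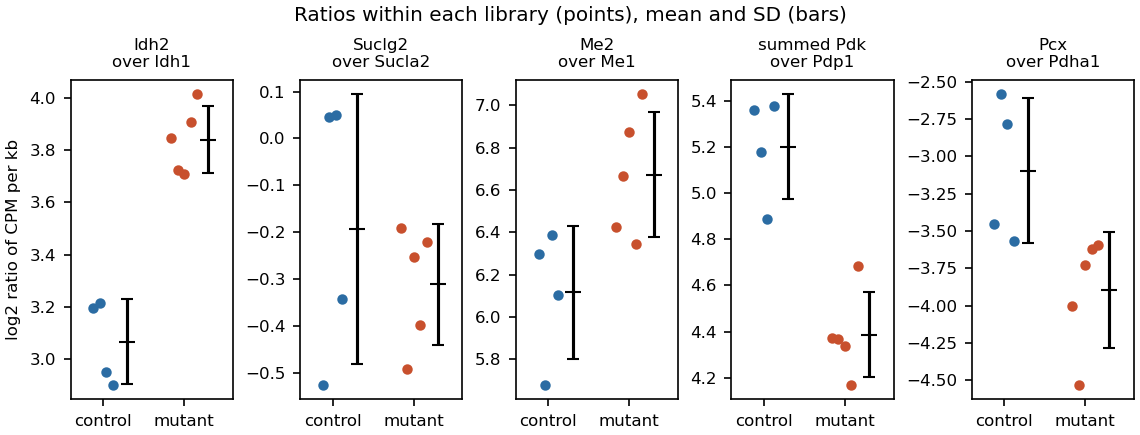
Log2 ratio of CPM per kilobase within each library (points), with mean and SD (bars), for 5 pairs in the 4 control and 5 mutant libraries; each panel has its own y axis, which does not start at 0. The groups do not overlap for *Idh2* over *Idh1*, the summed *Pdk* genes over *Pdp1* and *Pcx* over *Pdha1*, and they overlap for *Suclg2* over *Sucla2* and *Me2* over *Me1*.

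Per kilobase of gene length, the 38 genes spanned a 189-fold range in control libraries. *Idh2* (448 ± 21.7 CPM per kilobase), *Mdh2* (445 ± 53.0), *Sdhd* (344 ± 66.0), *Sdhb* (344 ± 54.9) and *Mdh1* (306 ± 48.6) were the highest, and *D2hgdh* (3.67 ± 1.13), *Pcx* (3.57 ± 1.33), *Pdp1* (3.44 ± 0.642) and *Me1* (2.36 ± 0.571) the lowest. Neighbours in this order overlapped between control libraries for 34 of 37 pairs, so the order is fixed only in broad terms. The exceptions were the steps from *Me2* to *Sucla2*, from *Mpc2* to *Mpc1* and from *Mpc1* to *Pdk4*. Of the 5 genes that passed the test, *Pdk4* and *Pdp1* lay among the lowest levels, with 5.61 and 3.44 CPM per kilobase in control and 11.9 and 5.2 in mutant libraries.

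**Figure D5:**
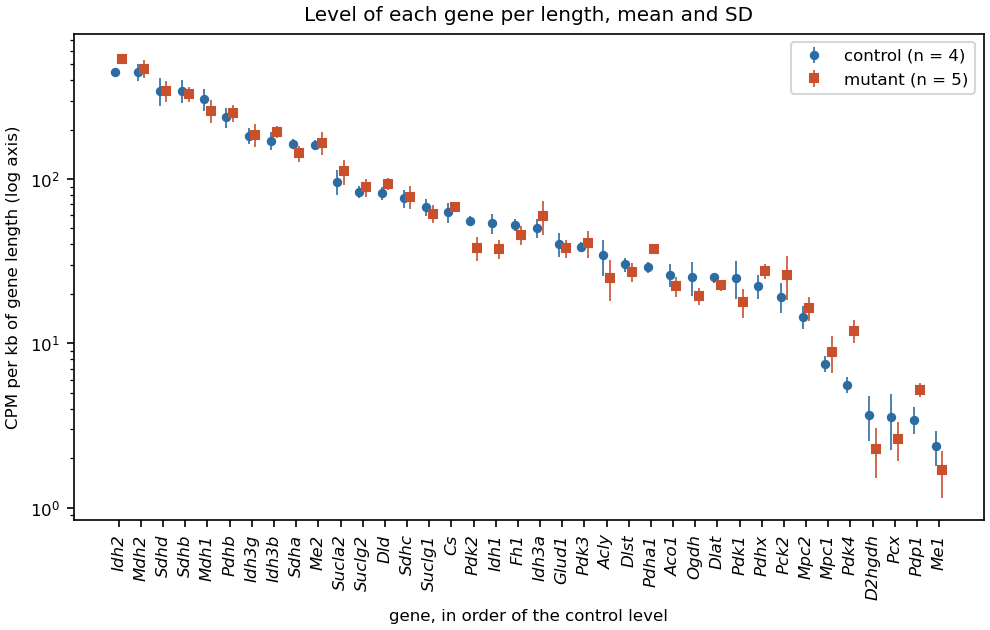
Level of each gene in CPM per kilobase of gene length (log axis), mean and SD, in control (circles, n = 4) and mutant libraries (squares, n = 5), ordered by the control level. The levels fall from 448 for *Idh2* to 2.36 for *Me1* in control libraries, and *Pdk4* shows the widest gap between the genotypes.

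A second list held 32 other genes of the pathway. Of these, 29 were in the table and 28 were tested; *Pck1*, the cytosolic counterpart of *Pck2*, had 0 to 39 counts per library and was not tested, and *Pdha2*, *Sdhaf3* and *Sdhaf4* were not analysed here. Of the 28, 5 passed the edgeR test (17.9%, against 14.8% of all genes tested), 2 higher and 3 lower, and 3 had no overlap between the genotypes (10.7%, against 15.2%). Without control replicate 73 only 2 passed (6.85% of all genes tested), and without mutant replicate 74 8 passed (21.2%). In the fits without control replicate 71 or without mutant replicates 77, 78 or 79, 3 passed (8.88% to 11.7% of all genes tested). The 2 that rose belong to the 5 genes of glutamine use and transamination in this list. *Got1*, the cytosolic aspartate aminotransferase, had 67.9, 59.8, 77.1 and 78.4 CPM in control libraries and 93.9, 99.98, 106, 106 and 104 CPM in mutant libraries (log2 fold change 0.52, SE 0.11, adjusted p = 0.00969). *Gpt2*, the mitochondrial alanine aminotransferase, had 42.8, 59.7, 74.6 and 59.3 CPM and 86.3, 83.8, 103, 89.3 and 139 CPM (0.76, SE 0.18, adjusted p = 0.0155). Neither of these 2 genes had overlapping groups, while *Got2*, the mitochondrial aspartate aminotransferase, had 196 ± 44.9 and 138 ± 38.4 CPM with overlap and did not pass (−0.50, adjusted p = 0.0951).

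The 3 that fell were carriers and a regulator. *Slc25a10*, the dicarboxylate carrier, had 39.9 ± 6.97 and 22.9 ± 5.75 CPM (log2 fold change −0.80, SE 0.19, adjusted p = 0.0155), and control replicate 76, at 30.5 CPM, lay below mutant replicate 74, at 31.8 CPM. *Slc25a11*, the carrier of 2-oxoglutarate and malate, had 257, 222, 227 and 251 CPM in control and 169, 211, 185, 178 and 168 CPM in mutant libraries with no overlap (−0.39, SE 0.11, adjusted p = 0.0276), and it shares 189 bases with *Rnf167* on the opposite strand. *Pdpr*, the regulatory subunit of PDP, had 9.06 ± 2.37 and 5.29 ± 1.25 CPM with overlap (−0.77, SE 0.25, adjusted p = 0.0497). The paralog *Pdp2* had 8.27 ± 2.21 and 10.3 ± 0.475 CPM and did not pass (0.32, adjusted p = 0.288). None of the 5 genes of complex II assembly and lipoylation and none of the 4 of propionyl-CoA entry passed in the edgeR fit, and 0 of these 9 had an unadjusted p under 0.05, against 31.4% of all genes tested.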

How the data were processed

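RNA-seq counts of SIX2 progenitors sorted from E18.5 kidneys of 4 Six2-Qpc+/- control and 5 Six2-Qpc-/- mutant samples were analysed. Per the labels, cDNA was amplified from low-input RNA, poly(A)-selected and sequenced without strand information. The authors deposited the number of reads per gene as whole counts for each library. The submitters' processing notes name STAR, DESeq2 and build mm10; versions and the counting tool are not given in the sources used here. The authors' FPKM, normalized signal, fold change and p-value columns were not used.

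The counts were fitted with edgeR 4.0.16 under R 4.3.3. The filterByExpr function kept 14990 of 26858 genes, libraries were normalized by TMM, and the genotypes were compared with the robust quasi-likelihood test, with Benjamini-Hochberg adjustment over all genes tested and a threshold of 0.05. Standard errors, 95% intervals and CPM come from this fit. Totals of 21040536 to 23986458 counts leave the spread between libraries as the main error. Errors after ± are SDs. Ratios within libraries were compared by 2-sided exact permutation tests. Gene lengths are those deposited with the counts. Genes were matched by symbol, since the deposited identifier of *D2hgdh* belongs to another gene. Start and end equalled those of GENCODE M21 (GRCm38) for 27 of 38 genes. Promoters were from RefSeq (GRCm38.p6).

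The gene lists were chosen with earlier results of these data known. All 38 genes are described by step; those past the threshold are given library by library, with members of paralog families named whatever their values and, from the second list, those past the threshold. Other genes named, and other library values, were chosen after their values were seen. Alternatives were DESeq2 1.42.0, RLE normalization, 2 other filters, limma-voom (limma 3.58.1) with quality weights, 1 surrogate variable (sva 3.50.0), a covariate for Y-linked expression and each library left out in turn. Some genes of the second list are not reported here. The scripts were tested on simulated counts. Figures were drawn with Python 3.11.15 and matplotlib 3.10.9.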

Additional observations from a re-analysis of the deposited data

Results flagged for a closer look

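In 2 genes, 1 library stood apart from the others of its genotype by Dixon's criterion. *Pdha1* had 73.7 CPM in control replicate 71, against 84.8 to 86.9 CPM in the other control libraries. *Me1* had 10.6 CPM in control replicate 72, against 6.73 to 7.00 CPM in the other control libraries. Of 98 groups examined (genotypes of the genes and ratios), 2 were marked, and chance marks about 1 in 20 groups.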

How the results depend on the processing

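Of the 5 genes past the threshold, *Pdk4* and *Pdk2* passed in 17 of 17 settings, *Pdp1* and *Idh1* in 14 and *Pdha1* in 10, with the direction unchanged in these settings for all 5. The count of genes that differed was 5, with 14.8% of all genes tested past the threshold. It was 9 with 1 surrogate variable (5 higher, 4 lower, with 14.5% of all genes tested). It was 13 with limma-voom with quality weights (6 higher, 7 lower, with 32.4% of all genes tested). With 1 library left out it was 2 to 8 (1 to 3 higher, 1 to 5 lower, with 6.85% to 21.2% of all genes tested). The median log2 fold change moved from 0.03 to −0.089 with 1 surrogate variable. The count in the second list was 5, and it was 9 with limma-voom and 2 to 8 with 1 library left out. Without the filter on low counts it was 3 (7.35% of all genes tested). The cause of these shifts was not tested, except that leaving out a library leaves fewer samples. The difference in *Me2* over *Me1* lay between 0.41 and 0.64 with 1 library left out and passed in 2 of 9 fits, and *Pcx* over *Pdha1* between −0.96 and −0.63, missing the threshold without control replicate 72 alone; *Suclg2* over *Sucla2* and the summed *Pdk* genes over *Pdp1* kept their side of the threshold. *Uqcrq* kept its call throughout, at −2.26 to −2.06 with 1 library left out.

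Genes that changed sign did so without a call on either side. *Sdhd* was 0.0077 with DESeq2 and 0.0077 with RLE normalization. With limma-voom, *Sdhb* was 0.037, *Sdhd* 0.13 and *Me2* −0.055. With 1 surrogate variable, *Mpc2* was −0.013, *Pdhb* −0.082, *Pdk3* −0.092, *Idh3a* −0.053, *Idh3g* −0.16, *Suclg2* −0.021, *Sucla2* −0.024, *Sdhc* −0.16, *Mdh2* −0.091 and *Glud1* 0.069. With the Y-linked covariate, *Idh3g* was −0.028 and *Sdhc* −0.014. With 1 library left out, values ranged from −0.16 to 0.0085 for *Sdhb*, −0.11 to 0.084 for *Sdhd*, −0.046 to 0.10 for *Idh3g*, −0.033 to 0.13 for *Sdhc*, −0.0037 to 0.13 for *Mdh2*, −0.049 to 0.10 for *Me2* and −0.022 to 0.14 for *Pdk3*.

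No paired analysis was possible because the genotypes share no replicate number. Libraries differ in a length-related pattern that crosses the genotypes, and stromal markers are higher in mutant libraries. Y-linked transcripts were detected at high levels only in control replicates 72 and 73 and mutant replicate 79. Of these, 72 and 79 also had low values of short genes, and 73 was mixed. Mutant replicate 74 had low values of short genes too, without high levels of Y-linked transcripts. With 4 and 5 libraries, exact permutation tests cannot go below p = 0.00794. Counting error is largest for *Me1*, with 77 to 272 counts per library. Protein levels, phosphorylation and flux were not measured here.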
